A study of Mus musculus with 12 samples.

Results

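The genes described here are 43 genes for the folding, quality control and degradation of proteins in the endoplasmic reticulum (ER), read in mouse liver. They were chosen by role, as a list of gene symbols with no threshold on their values, and each was matched by symbol to 1 row of the deposited gene table, so that they are 43 of 27912 genes. All 43 passed the filter on low counts, among 17729 genes that were tested. By role they were 13 chaperones and co-chaperones, 10 disulfide and prolyl isomerase enzymes, 12 genes of ER-associated degradation, 4 genes of translocation and export, and 4 stress sensors.

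Livers of wild-type (WT) and CCR1 knockout (CCR1-KO) mice were compared. CCR1 is a receptor for inflammatory chemokines on leukocytes. All were labelled male and as fed the CL diet, a feed with cholate and much cholesterol and fat. The series' design text gives 12 weeks of feeding before the livers were taken. It gives C57BL/6 and a starting age of 8 weeks for the WT mice, and its wording leaves the strain and starting age of the CCR1-KO mice unclear. The 3 WT mice (replicates 62, 63 and 64) and 3 CCR1-KO mice (replicates 65, 66 and 67) are single animals by the numbers in their titles. The labels hold 12 samples; the remaining 6 (WT-CL and CCR1-LKO) and any chow-fed liver were not analysed here. The way the knockout was made and whether the groups were littermates were not given in the sources used here. Genotype, genetic background and housing therefore cannot be told apart. As a check of the labels, Ccr1 had 100, 23 and 123 reads in the WT libraries and 11, 4 and 14 reads in the CCR1-KO libraries. These are low counts, and Ccr1 did not pass the threshold of edgeR's quasi-likelihood test described below (log2 fold change -2.72, adjusted p = 0.075). Library totals ran from 74699391 to 79154085 reads. The hepatocyte marker Alb was high in all libraries, from 49835 to 67345 CPM, the read count scaled to library size.

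The ER is where secreted and membrane proteins are folded, and the hepatocyte, which secretes most plasma proteins, carries a large one. Chaperones of the Hsp70 and Hsp90 families and the lectins calnexin and calreticulin hold new chains, disulfide isomerases join their cysteines, and chains that fail are drawn back through the membrane by the HRD1 ubiquitin ligase complex and the ATPase p97. Unfolded chains are sensed by IRE1 (Ern1), PERK (Eif2ak3) and ATF6. ATF6, and XBP1 made from the mRNA that IRE1 splices, then raise the transcription of chaperone and degradation genes through short promoter elements.

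The first element is the ER stress response element (ERSE), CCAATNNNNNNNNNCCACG, in which NF-Y holds the CCAAT end and ATF6 or XBP1 the CCACG end. The second is ERSE-II, ATTGGNCCACG, and the third is the core of the unfolded protein response element (UPRE), TGACGTGG. Each was searched on both strands in RefSeq promoters (build GRCm38.p6), 250 bases before to 50 bases after each start. Of the 43 members, 38 matched an entry by symbol. Atf6, Derl1, Hyou1, Manf and Sec61a1 are named only.

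ERSE was found at 9 of the 38 members (23.7%) and at 37 of 27025 genes with an entry (0.137%). By promoter, 39 of 32851 held it (0.119%). ERSE-II was found at 2 of 38 (5.26%) and at 12 genes overall (0.0444%, or 0.0365% of promoters). The UPRE core was found at 4 members (Sec24d, Txndc11, Txndc5 and Vcp, 10.5%). It was found at 193 genes overall (0.714%) and in 222 promoters (0.676%). A match is only a match of letters, and binding was not measured. The ERSE and ERSE-II matches at the members are written below in the direction of the element, 5′ to 3′. The search required the fixed ends to match exactly, so only the spacers could differ between genes. Capitals mark the fixed bases and lower case the free spacer.

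Hspa5: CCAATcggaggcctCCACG
Hsp90b1, distal: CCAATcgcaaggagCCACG
Hsp90b1, proximal: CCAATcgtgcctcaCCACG
Calr: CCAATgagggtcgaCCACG
Canx: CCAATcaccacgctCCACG
Creld2: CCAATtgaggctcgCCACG
Dnajc3: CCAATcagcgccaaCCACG
Pdia6: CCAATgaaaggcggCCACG
Derl3: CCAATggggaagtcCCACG
Syvn1: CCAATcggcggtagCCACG
Herpud1, ERSE-II: ATTGGgCCACG
Dnajb11, ERSE-II: ATTGGcCCACG

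By role, ERSE lay at 6 of 11 chaperone genes with an entry, at 1 of 10 disulfide and isomerase genes and at 2 of 11 degradation genes. It lay at 0 of 3 genes of translocation and export and at 0 of 3 sensors. Hsp90b1 held a pair of ERSE matches. The Dnajb11 match lay after the annotated start, from base 7 to base 17, and each of the other ERSE and ERSE-II matches lay before the start, between bases -212 and -26. The promoters below are the 170 bases before the start, 5′ to 3′ on the gene's strand, with matches in capitals. They are those of Hspa5, the best known target of the response, and of 4 of the genes that were higher in CCR1-KO. Herpud1 (chr8:94386259-94386428, plus strand) holds ERSE-II, and Sdf2l1 (chr16:17132384-17132553, minus strand) holds none of the elements in this window. The others are Hspa5 (chr2:34771920-34772089), Creld2 (chr15:88819476-88819645) and Dnajc3 (chr14:118937762-118937931), all on the plus strand.

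Hspa5: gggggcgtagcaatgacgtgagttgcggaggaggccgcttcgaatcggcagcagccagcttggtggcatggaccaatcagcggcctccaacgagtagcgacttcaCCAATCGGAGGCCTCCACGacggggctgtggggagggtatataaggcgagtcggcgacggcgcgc
Creld2: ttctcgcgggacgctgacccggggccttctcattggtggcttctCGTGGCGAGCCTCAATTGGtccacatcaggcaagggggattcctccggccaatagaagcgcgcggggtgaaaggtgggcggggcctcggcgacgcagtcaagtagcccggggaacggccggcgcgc
Dnajc3: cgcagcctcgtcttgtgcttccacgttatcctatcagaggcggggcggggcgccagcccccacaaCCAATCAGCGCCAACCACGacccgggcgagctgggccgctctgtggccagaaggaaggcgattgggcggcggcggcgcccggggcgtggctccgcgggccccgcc
Herpud1: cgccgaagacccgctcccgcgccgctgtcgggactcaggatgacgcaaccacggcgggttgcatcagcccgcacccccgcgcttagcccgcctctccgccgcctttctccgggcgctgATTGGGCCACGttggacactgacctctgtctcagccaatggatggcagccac
Sdf2l1: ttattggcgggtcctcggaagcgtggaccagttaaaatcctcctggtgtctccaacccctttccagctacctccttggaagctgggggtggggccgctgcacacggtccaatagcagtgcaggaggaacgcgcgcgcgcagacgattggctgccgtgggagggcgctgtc

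**Figure D1:**
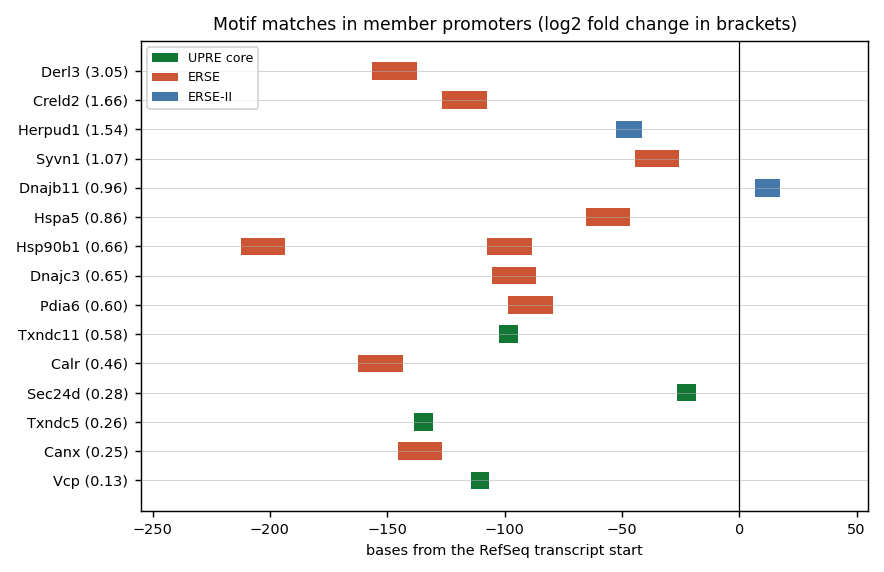
Positions of element matches in the promoters of the members that hold one, in bases from the annotated start (x axis), 1 line per gene, coloured by element. Most ERSE matches lie within 170 bases before the start, and the Dnajb11 ERSE-II match lies just after it.

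The next question was whether these genes differed between CCR1-KO and WT livers on the diet. Herpud1, Dnajb11, Dnajc3, Sdf2l1 and Creld2 were higher in CCR1-KO, 0 members were lower, and 38 did not pass. The test was edgeR's quasi-likelihood test on read counts, and the threshold was a Benjamini-Hochberg adjusted p under 0.05 over all genes tested. Of all genes tested, 2.83% were higher and 3.61% were lower. An unadjusted p under 0.05, in either direction, was found for 26 of 43 members, against 24.4% of all genes. These 26 include the members past the threshold. They also include Dnajc10, whose log2 fold change was below 0 (-0.51), and the rest leaned upward without passing. Values are CPM scaled with TMM factors, which set the bulk of genes equal between libraries, and each fold is the log2 ratio of CCR1-KO to WT with its standard error (SE). In the CPM values every CCR1-KO library lay above every WT library for 26 members, against 15.2% of all genes, and every one lay below for 1, Dnajc10, against 17.4%. The other 16 overlapped. The median log2 fold change was 0.39 over the members and 0.00 over all genes tested, and 38 of 43 members, against 50.1% of all genes, had a fold above 0. In whole liver, fewer cells of a type and less RNA per cell cannot be told apart, for any gene below.

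**Figure D2:**
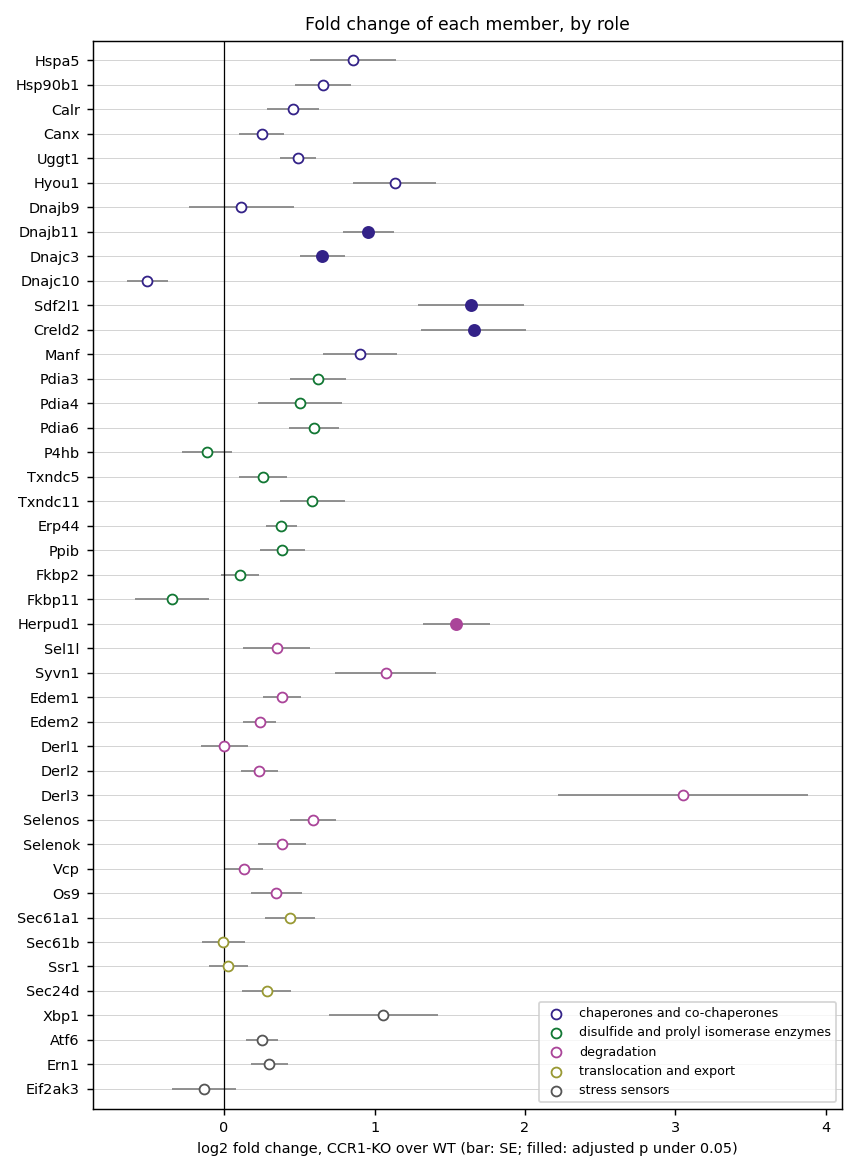
Log2 fold change of CCR1-KO over WT (x axis, bars ± SE from the edgeR fit) for each of the 43 members, grouped by role, with members past the threshold marked. 38 members lie above 0 with TMM scaling, and 27 of 43 do without scaling factors. The 5 members past the threshold are 4 chaperones or co-chaperones and Herpud1.

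The scaling decided how these differences read. TMM factors were 1.06, 1.12 and 1.17 in WT and 1.06, 0.874 and 0.779 in CCR1-KO replicates 65, 66 and 67. Without scaling factors the median of all genes moved by about 0.30 to -0.30 and the members' median to 0.08, so the members stood 0.37 above all genes, against 0.38 with TMM. Members above the median of all genes numbered 38 with TMM and 37 without. As plain shares of reads, the CCR1-KO libraries lay above the WT libraries for 6 members (Creld2, Dnajb11, Dnajc3, Herpud1, Hyou1 and Sdf2l1; 4.72% of all genes) and below for 3 (Dnajc10, Fkbp11 and P4hb; 28.4% of all genes). All 5 genes past the threshold are among the 6.

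**Figure D3:**
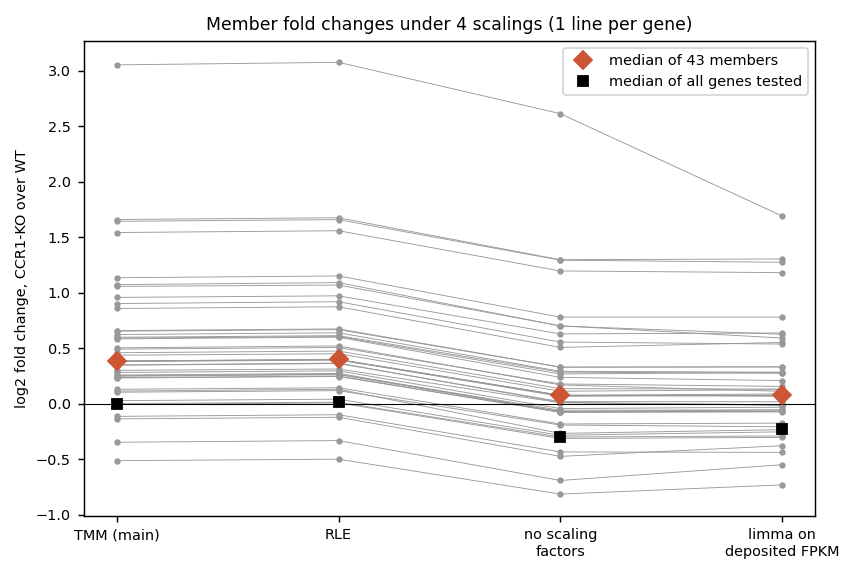
Log2 fold change of CCR1-KO over WT (y axis) with TMM, RLE or no scaling factors and in a fit on FPKM. Thin lines are single members, diamonds the members' median and squares the median of all genes tested. Both medians drop together without scaling factors and in the FPKM fit. The members' median stands above that of all genes in each, by 0.31 to 0.38. In the FPKM fit without a filter on low values, not drawn, it stood 0.14 above.

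Chaperones and co-chaperones were the group with most members past the threshold, 4 of 13, and had the highest median, 0.66. In 11 of them every CCR1-KO library lay above every WT library in CPM. The 4 were Creld2, Sdf2l1, Dnajb11 and Dnajc3, none of them among the most abundant chaperones. Their means rose 1.57-fold to 3.16-fold.

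Creld2 (ENSMUSG00000023272, chromosome 15, 88819646 to 88826683, plus strand, GRCm38) encodes an EGF-domain protein of the ER that is secreted under stress and acts on disulfide bonds. It read 16.6, 28.6 and 33.7 CPM in WT replicates 62, 63 and 64 and 65.5, 59.1 and 124 CPM in CCR1-KO replicates 65, 66 and 67. The CCR1-KO values were all well above the WT values, and replicate 67 was highest. Its mean was 3.16 times the WT mean (log2 fold change 1.66 ± 0.35, adjusted p = 0.035).

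Sdf2l1 (ENSMUSG00000022769, chromosome 16, 17130138 to 17132383, minus strand) encodes a partner of the co-chaperone ERdj3 that keeps BiP clients from aggregating. It read 4.398, 4.94 and 9.30 CPM in the WT libraries and 17.1, 13.8 and 27.3 CPM in the CCR1-KO libraries. It had the lowest CPM of the 4, and the lowest CCR1-KO library stood above the highest WT library. The ratio of means was 3.12 (log2 fold change 1.64 ± 0.35, adjusted p = 0.037).

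Dnajb11 (ENSMUSG00000004460, chromosome 16, 22857845 to 22872465, plus strand) encodes that co-chaperone, ERdj3, which hands unfolded chains to BiP. It read 48.4, 61.2 and 68.3 CPM in the WT libraries and 100.01, 113 and 133 CPM in the CCR1-KO libraries. The CCR1-KO libraries lay close together, each clear of the WT range, and the log2 fold change was 0.96 ± 0.17 (adjusted p = 0.022). Dnajc3 (ENSMUSG00000022136, chromosome 14, 118937976 to 118981697, plus strand) encodes p58IPK, another J-domain partner of BiP that is also known to restrain PERK. Its values were 134, 152 and 166 CPM in the WT libraries and 211, 222 and 277 CPM in the CCR1-KO libraries, again without overlap. The log2 fold change was 0.65 ± 0.15 (adjusted p = 0.046).

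The abundant chaperones leaned the same way but did not pass. Hspa5, which encodes BiP (chromosome 2, 34771970 to 34777547, plus strand), read 416, 614 and 793 CPM in the WT libraries and 912, 897 and 1496 CPM in the CCR1-KO libraries. The lowest CCR1-KO library stood above the highest WT library, but the WT libraries themselves spread as widely as the group means, and the log2 fold change of 0.86 ± 0.29 gave an adjusted p = 0.12. Hsp90b1, the ER Hsp90 (Grp94), read 522, 566 and 655 CPM in the WT libraries and 821, 781 and 1150.3 CPM in the CCR1-KO libraries, with a log2 fold change of 0.66 ± 0.19 (adjusted p = 0.079). The groups did not overlap here either. Hyou1, the exchange factor that resets BiP, read 86.3, 103 and 143 CPM in the WT libraries and 192, 195 and 342 CPM in the CCR1-KO libraries. This was a larger difference, log2 fold change 1.13 ± 0.28, just short of the threshold (adjusted p = 0.053).

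The glycoprotein chaperones differed less. Calr, calreticulin, read 484, 438 and 513 CPM in the WT libraries and 587, 573 and 814 CPM in the CCR1-KO libraries (log2 fold change 0.46 ± 0.17, adjusted p = 0.15), with the WT libraries below. Canx, its membrane-bound relative calnexin, read 195, 256 and 256 CPM in the WT libraries and 262, 269 and 309 CPM in the CCR1-KO libraries, so that the groups almost touched. Its log2 fold change was 0.25 ± 0.15 (adjusted p = 0.35) and turned to -0.07 without scaling factors. Uggt1, which marks misfolded glycoproteins for another round with these lectins, had tight groups without overlap and a log2 fold change of 0.49 ± 0.12 (adjusted p = 0.053).

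Manf, a small secreted protein that binds BiP, read 47.6, 57.1 and 66.1 CPM in the WT libraries and 86.8, 83.3 and 149 CPM in the CCR1-KO libraries (log2 fold change 0.90 ± 0.24, adjusted p = 0.069). Its gene model overlaps those of Dcaf1, with 1369 to 1802 reads, and Rbm15b, with 836 to 1336, so reads could be shared between them. Dnajb9, which encodes ERdj4, did not share the lean: it read 37.7, 59.2 and 74.4 CPM in the WT libraries and 37.2, 56.6 and 91.6 CPM in the CCR1-KO libraries, 2 nearly equal ranges, with a log2 fold change of 0.11 ± 0.35 (adjusted p = 0.87) that was -0.27 without scaling factors. Dnajc10, which encodes the disulfide reductase ERdj5, was the one chaperone gene with the CCR1-KO libraries below the WT libraries, at 24.1, 30.1 and 31.5 CPM in the WT libraries and 21.2, 18.5 and 20.4 CPM in the CCR1-KO libraries. Its log2 fold change was -0.51 ± 0.14 (adjusted p = 0.066).

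**Figure D4:**
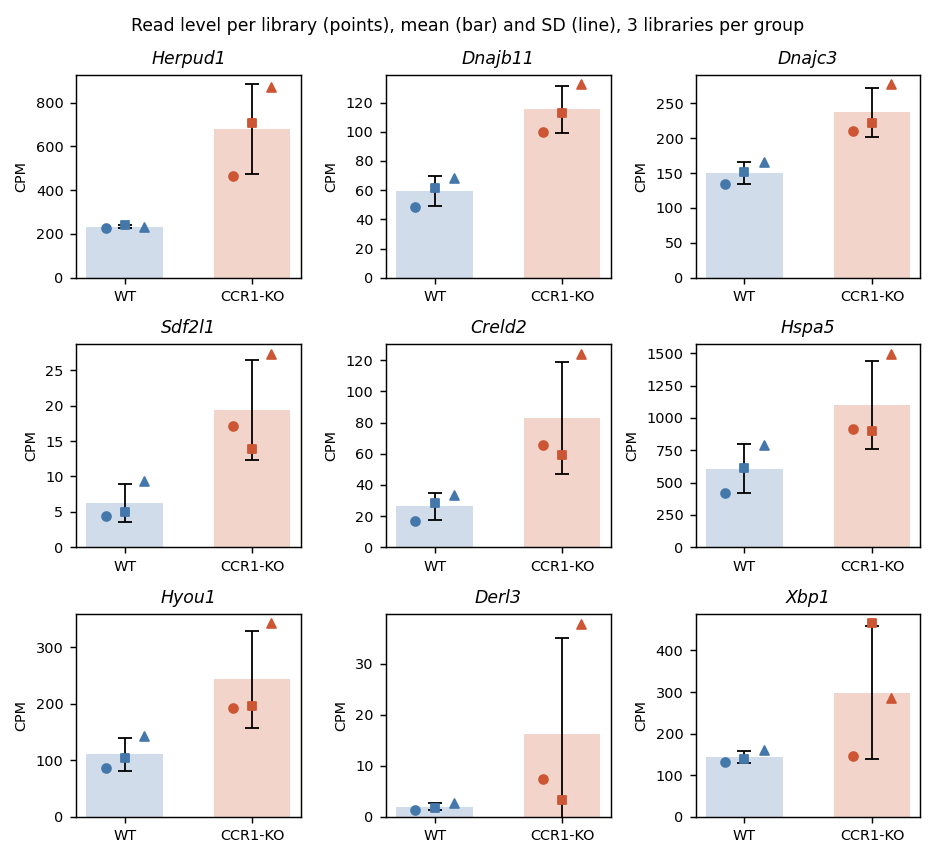
CPM of selected members in each library (points) with the group mean and SD (n = 3), y axis from 0 in each panel. For Derl3 the CCR1-KO SD is larger than the mean, so that its lower end is off the axis; for Herpud1 the CCR1-KO points are spread from 464 to 869 while the WT points fall together.

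Of the 10 disulfide and prolyl isomerase enzymes, 0 were higher and 0 were lower, and 5 had an unadjusted p under 0.05 in the same test; DESeq2 called 2 of them higher, Pdia3 and Pdia6. Their median log2 fold change was 0.38, close to the median of all members, and 5 had CCR1-KO values clear above the WT values. Pdia6, an isomerase that also binds BiP, read 139, 155 and 173 CPM in the WT libraries and 236, 192 and 279 CPM in the CCR1-KO libraries (log2 fold change 0.60 ± 0.17, adjusted p = 0.073). Pdia4 (ERp72), an isomerase with an additional active domain, read 175, 154 and 183 CPM in the WT libraries and 218, 154 and 354 CPM in the CCR1-KO libraries. In that gene replicate 66 sat at the lowest WT value and replicate 67 stood far above, so the log2 fold change of 0.50 ± 0.28 had an adjusted p = 0.3. Pdia3, the isomerase that works with calnexin and calreticulin, had a log2 fold change of 0.62 ± 0.19 (adjusted p = 0.093).

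P4hb, protein disulfide isomerase itself and a subunit of the microsomal triglyceride transfer protein that loads lipoproteins, did not lean upward. It read 1105, 1147 and 1244 CPM in the WT libraries and 1000.4, 927 and 1305 CPM in the CCR1-KO libraries, with CCR1-KO libraries on both sides of the WT range. The log2 fold change was -0.11 ± 0.17 (adjusted p = 0.73), and as shares of reads its CCR1-KO libraries all lay below the WT libraries. The 6 others ran from -0.35 for Fkbp11, an ER prolyl isomerase, to 0.58 for Txndc11, a thioredoxin-domain protein. Between them lay Fkbp2 at 0.10 and Txndc5 at 0.26, both of which fell below 0 without scaling factors, and Erp44 at 0.38 and Ppib (cyclophilin B) at 0.39.

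Among the 12 degradation genes 1 passed, Herpud1, and it was the member with the smallest p. The other 11 did not pass, the median log2 fold change was 0.37, and 8 had groups without overlap, with CCR1-KO above. Herpud1 (ENSMUSG00000031770, chromosome 8, 94386438 to 94395377, plus strand) encodes a membrane protein that gathers the HRD1 ligase complex. It read 228, 241 and 231 CPM in WT replicates 62, 63 and 64, a very narrow range, and 464, 707 and 869 CPM in CCR1-KO replicates 65, 66 and 67. Every CCR1-KO library was about double the WT level or more. The ratio of means was 2.91 (log2 fold change 1.54 ± 0.22, adjusted p = 0.013).

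The ligase complex itself differed less. Syvn1, the HRD1 ubiquitin ligase, read 59.8, 57.4 and 73.8 CPM in the WT libraries and 87.8, 96.4 and 218 CPM in the CCR1-KO libraries. The groups did not overlap, but replicate 67 was more than double the other CCR1-KO libraries, and the log2 fold change was 1.07 ± 0.34 (adjusted p = 0.1). Its model overlaps Mrpl49 on the opposite strand, with 1400 to 2402 reads, and the use of strand in counting was not given in the sources used here. Sel1l, its adaptor, read 122, 131 and 132 CPM in the WT libraries and 138, 125 and 227 CPM in the CCR1-KO libraries. Only replicate 67 stood out, and the log2 fold change was 0.35 ± 0.22 (adjusted p = 0.37), near 0 in the FPKM fits.

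Derl3, a derlin of the retrotranslocation site that is prominent in professional secretory cells, was rare in WT liver and uneven in CCR1-KO liver, at 1.40, 1.77 and 2.68 CPM in the WT libraries and 7.45, 3.36 and 37.8 CPM in the CCR1-KO libraries. The groups did not overlap, but the mean of 16.2 ± 18.8 CPM rested on replicate 67. Its log2 fold change was 3.05 ± 0.83 (adjusted p = 0.071), and 1.47 without replicate 67. The derlins with higher FPKM differed less. Derl1 was at 0.00 and Derl2 at 0.23 on the log2 scale, and both were below 0 without scaling factors.

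Edem1, which trims mannose from chains bound for degradation, read 97.0, 113 and 119 CPM in the WT libraries and 141, 135 and 152 CPM in the CCR1-KO libraries (log2 fold change 0.39 ± 0.13, adjusted p = 0.11), with no overlap. Its relative Edem2 was at 0.24 and the lectin Os9 at 0.35 on the log2 scale. The selenoproteins of the p97 recruitment site, Selenos and Selenok, had log2 fold changes of 0.59 and 0.38, the first close to the threshold (adjusted p = 0.062). Vcp, which encodes p97, had 0.13. Edem2 and Vcp were below 0 without scaling factors.

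Translocation and export genes stood nearest to all genes. Of the 4, 0 were higher, 0 were lower and 1, Sec61a1, had an unadjusted p under 0.05; DESeq2 also called 0. Their median log2 fold change was 0.16, and 0 of 4 had groups without overlap. Sec61b, a small subunit of the channel, read 18.5, 21.5 and 24.2 CPM in the WT libraries and 21.9, 19.0 and 23.0 CPM in the CCR1-KO libraries (adjusted p = 0.99). Ssr1, of the translocon-associated complex, read 56.9, 66.4 and 75.8 CPM in the WT libraries and 64.995, 68.8 and 69.3 CPM in the CCR1-KO libraries (log2 fold change 0.03 ± 0.13, adjusted p = 0.92). In both genes the CCR1-KO values fell inside the WT range.

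Sec24d, a cargo adaptor of COPII vesicles, read 58.8, 49.3 and 64.9 CPM in the WT libraries and 60.3, 66.9 and 83.2 CPM in the CCR1-KO libraries, with overlap and a log2 fold change of 0.28 ± 0.16 (adjusted p = 0.32). Sec61a1, the channel's pore subunit, had the highest fold of the 4, 0.44 ± 0.16 (adjusted p = 0.15). Without scaling factors Ssr1 was at -0.28 and Sec24d at -0.04.

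Of the 4 stress sensors, 0 were higher, 0 were lower, and 3 had an unadjusted p under 0.05; DESeq2 called Xbp1 higher. Xbp1, the transcription factor activated by IRE1, read 131, 139 and 161 CPM in WT and 146, 465 and 285 CPM in CCR1-KO replicates 65, 66 and 67. Replicate 65 lay inside the WT range while replicate 66 was highest, a different order from the chaperones. The log2 fold change was 1.06 ± 0.36 (adjusted p = 0.13), and 1.38 (adjusted p = 0.010) without replicate 65. These gene totals do not tell the spliced form of Xbp1 from the unspliced.

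Atf6 read 60.6, 60.4 and 62.002 CPM in the WT libraries and 67.4, 72.9 and 77.7 CPM in the CCR1-KO libraries, a small difference without overlap (log2 fold change 0.25 ± 0.11, adjusted p = 0.2). Ern1, which encodes IRE1, read 46.9, 46.7 and 48.8 CPM in the WT libraries and 59.5, 65.3 and 50.6 CPM in the CCR1-KO libraries, also without overlap (log2 fold change 0.30 ± 0.12, adjusted p = 0.19). Both changed sign with the scaling or unit: Atf6 was at -0.06 when no factors were used, and Ern1 at -0.01 in the FPKM fit. Eif2ak3, which encodes PERK, read 15.8, 16.8 and 23.9 CPM in the WT libraries and 14.5, 15.3 and 21.5 CPM in the CCR1-KO libraries, with overlapping groups (log2 fold change -0.14 ± 0.21, adjusted p = 0.74).

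The libraries did not contribute evenly. In TMM-scaled CPM, replicate 67 was the highest of all 6 libraries for 31 members and the highest CCR1-KO library for 35. Replicate 66 was the highest of all for 6. In WT, replicate 64 was the highest for 34 members, and replicate 62 was the lowest of all 6 libraries for 26. The chaperones' median log2 distance from their WT mean was 0.50, 0.55 and 0.99 in CCR1-KO replicates 65, 66 and 67. For the disulfide and isomerase group it was 0.26, 0.23 and 0.51, for degradation 0.21, 0.30 and 0.56, and for translocation and export 0.05, 0.13 and 0.30. In each of these groups replicate 67 was highest. The sensors had 0.08, 0.36 and 0.27, with replicate 66 highest. Replicate 67 also had the lowest TMM factor, 0.779. As plain shares of reads summed by role, it was the highest CCR1-KO library for chaperones (0.390%) and degradation (0.190%). For disulfide and isomerase enzymes replicate 65 was highest, at 0.244% against 0.240% in replicate 67. For translocation and export replicate 65 had 0.0268%, and replicate 67 was the lowest CCR1-KO library at 0.0237%.

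Members varied more between CCR1-KO mice than between WT mice, as genes in general did. The median coefficient of variation was 18.3% in CCR1-KO and 11.6% in WT, against 20.5% and 15.3% over all genes tested. It was larger in CCR1-KO for 28 of the 43. Summed over the 43 genes, the WT level was 6418 ± 655 CPM and the CCR1-KO level 9150 ± 1853 CPM (mean ± SD, n = 3), a ratio of 1.43. By role the ratio was 1.60 for chaperones, 1.15 for disulfide and isomerase enzymes, 1.57 for degradation, 1.20 for translocation and export and 1.65 for sensors, the last mostly Xbp1. As plain shares of reads the groups overlapped: the members took 0.614%, 0.708% and 0.831% of reads in WT and 0.835%, 0.728% and 0.877% in CCR1-KO.

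**Figure D5:**
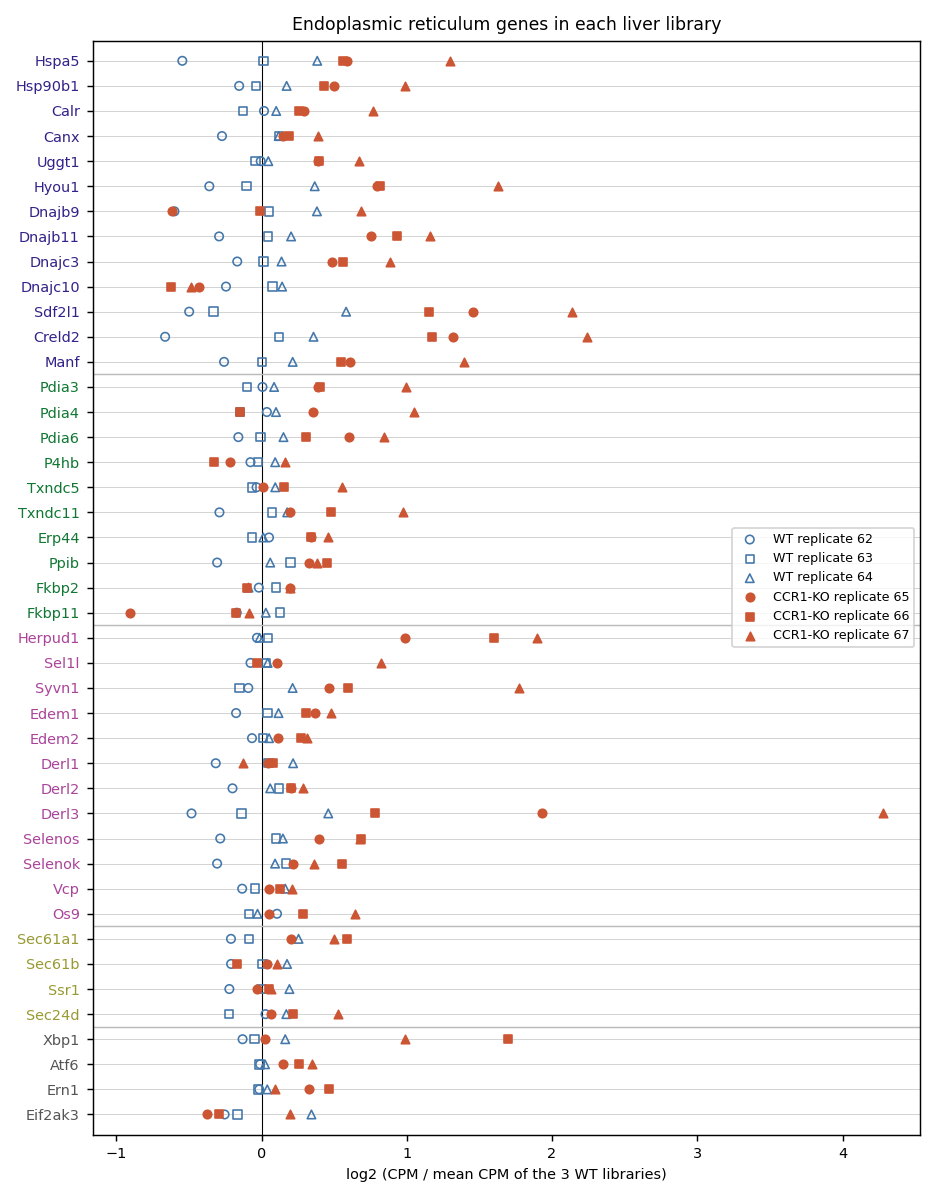
Log2 of each member's CPM over its WT mean (x axis) in the 6 libraries (points), members in rows ordered by role. Colour marks the group and marker shape the library within it. CCR1-KO replicate 67 holds the highest value of 31 of the 43 members, and Dnajc10 is below its WT values in all 3 CCR1-KO libraries.

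Levels of different genes were compared in FPKM, the deposited level scaled to gene length and library size. P4hb was the highest member in both groups, at 415 ± 44.6 FPKM among WT mice and 307 ± 42.6 among CCR1-KO mice (mean ± SD, n = 3 each). Calr, Hspa5 and Hsp90b1 followed in WT at 169 ± 18.2, 148 ± 52.1 and 147 ± 24, and these 3 do not differ beyond their spread. Herpud1 held place 5 in WT at 102 ± 6.01 FPKM and place 2 in CCR1-KO at 233 ± 38.1. There it did not differ beyond its spread from Hspa5, at 210.0 ± 41.8. Creld2 moved from place 21 to place 13, at 19.8 ± 7.36 and 48.6 ± 15.4 FPKM. Derl3 was lowest in WT at 0.99 ± 0.38 FPKM.

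The calls on single genes depended on single libraries. With 1 library left out of the same test, the higher members numbered 0 without WT replicate 62 (0.447% of all genes), 0 without WT replicate 63 (0.197%) and 1, Sdf2l1, without WT replicate 64 (0.312%). They numbered 13 without CCR1-KO replicate 65 (5.50%), and 1, Herpud1, without replicate 66 (0.796%) or replicate 67 (0.947%). Herpud1 kept a log2 fold change between 1.32 and 1.76 in these 6 fits and passed in 3, all with the WT group whole. Creld2, Dnajb11 and Dnajc3 passed in 1 of 6, without replicate 65, and Sdf2l1 passed in 2. All 5 had a positive fold in all 6.

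Other methods gave between 1 and 16 higher members. DESeq2 gave 16 higher (6.48% of all genes) and 1 lower, Dnajc10 (8.21%); the 11 further genes were Hspa5, Hsp90b1, Hyou1, Manf, Uggt1, Pdia3, Pdia6, Derl3, Selenos, Syvn1 and Xbp1. RLE scaling gave the same 5 (2.94%). Without scaling factors 2 were higher, Creld2 and Herpud1 (1.24%), and without the filter on low counts 3 were (1.12%), these 2 and Dnajb11. The limma test on log2(FPKM + 0.5) gave Creld2, Herpud1 and Sdf2l1 as higher (1.78%) and Dnajc10 as lower (8.70%). The same 3 were higher with a pseudocount of 0.1 (1.74%), and Herpud1 alone without the filter on low FPKM (0.244%). Herpud1 was called under each of these 7 alternatives. With 3 against 3 mice an exact permutation test of 1 gene cannot give a two-sided p below 0.10.

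Members with an ERSE or ERSE-II match and members without were set side by side. The 11 with a match had a median log2 fold change of 0.86, from 0.25 to 3.05, and 4 of them were called higher (Creld2, Dnajc3, Dnajb11 and Herpud1). The 27 with an entry and neither element had a median of 0.30, and 1, Sdf2l1, was called. Over 19 other tested genes with the same elements the median was 0.08, with a wide range from -1.49 to 1.44, against a median of -0.02 over the 12084 tested genes with an entry. The difference between the member sets is a description of these genes and was not tested.

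The rest of the ER machinery leaned less. Over 105 further tested genes of folding, degradation, translocation, COPII transport and sensing, the median log2 fold change was 0.16, with 2 higher, 4 lower and 99 not past the threshold. Of 24 other folding enzymes and chaperones 2 were higher and 3 were lower in edgeR's test. Pdia5, a disulfide isomerase, read 28.5, 29.9 and 33.3 CPM in the WT libraries and 47.7, 53.1 and 63.5 CPM in the CCR1-KO libraries (log2 fold change 0.84 ± 0.14, adjusted p = 0.018). Ero1lb, an oxidase that recharges the isomerases, had a log2 fold change of 1.05 ± 0.19 (adjusted p = 0.023). DESeq2 called 3 of the 24 higher and 5 lower. The limma test on FPKM called neither Pdia5 nor Ero1lb, and of the 23 genes it tested 0 were higher and 6 were lower (Fkbp10, Fkbp7, Fkbp9, Ppic, Tmx2 and Tmx3).

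The 3 lower genes were Ppic, a cyclophilin (-1.61 ± 0.28, adjusted p = 0.021), Fkbp9, an ER prolyl isomerase (-0.58 ± 0.12, adjusted p = 0.032), and Tmx3, a membrane-bound oxidoreductase (-0.53 ± 0.12, adjusted p = 0.042). Tmx3 is named beyond the 4 genes that the naming rule allows, after its values were seen. In each the CCR1-KO libraries lay below the WT libraries.

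Of 23 other degradation genes, 28 genes of translocation, signal peptidase and glycosylation, and 20 COPII and cargo receptor genes, 0 were called, with medians of 0.21, 0.21 and 0.20. Unadjusted p was under 0.05 for 7, 8 and 1 of them, and DESeq2 called 1, 1 and 0 (Ubxn4 and Ganab, both higher). Among 10 other sensors and processing genes 1 was called, Creb3l1, a membrane-bound transcription factor, which was lower at 2.51, 2.29 and 3.42 CPM in the WT libraries and 0.988, 0.797 and 0.753 CPM in the CCR1-KO libraries (log2 fold change -1.69 ± 0.28, adjusted p = 0.019). DESeq2 and limma on FPKM also called Creb3l1 lower, and DESeq2 called Creb3l3 higher. Of 12 genes of the PERK arm 1 was called by edgeR, Chac1, a glutathione-degrading enzyme, which rose at a log2 fold change of 1.81 ± 0.40 (adjusted p = 0.04). DESeq2 called Chac1 and Ppp1r15a higher and Nupr1 and Trib3 lower, and limma on FPKM called Chac1 higher and Nupr1 and Trib3 lower. The median of those 12 was -0.03.

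Markers of other cells and of time of day were read beside these results, and their part in them was not tested. Hepatocyte markers summed to 75700 to 89990 CPM in WT and 75950 to 95750 in CCR1-KO, with 2 of 8, Cps1 and Serpina1c, called higher. Of 10 stellate cell and fibroblast markers 6 were called lower, and 8 lay below without overlap, with sums of 445 to 993 against 223 to 259 CPM. Biliary markers summed to 118 to 190 against 42.2 to 49.1 CPM, with 4 of 6 below and 1, Spp1, called lower. Spp1 made up most of these sums. It read 134, 111 and 180 CPM in the WT libraries and 43.8, 37.1 and 44.5 CPM in the CCR1-KO libraries. Endothelial markers summed to 115 to 166 against 108 to 147, with 0 of 6 called by edgeR or DESeq2 and 1 at an unadjusted p under 0.05. DESeq2 called 3 hepatocyte markers higher, and 8 stellate and 2 biliary markers lower.

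Plasma cells, which have a dense ER and express Derl3, Xbp1 and Sdf2l1, were looked at by 15 markers. The sums were 13.6 to 21.5 CPM in WT and 38.2, 13.0 and 11.3 CPM in CCR1-KO replicates 65, 66 and 67, with 1 marker above, 4 below and 10 overlapping. None of the 15 was called by edgeR, 2 had an unadjusted p under 0.05, and DESeq2 called Igha higher and Ighm lower. The lowest sum was in replicate 67 and the highest in replicate 65. Igha read 0.838, 1.20 and 0.921 CPM in the WT libraries and 13.4, 3.31 and 1.59 CPM in the CCR1-KO libraries, with all CCR1-KO libraries above, and Jchain read 0.535, 1.56 and 0.762 CPM in the WT libraries and 3.85, 0.628 and 1.71 CPM in the CCR1-KO libraries, with overlap. In replicate 67 Mzb1 and Irf4 were at 0, and in replicate 66 Pou2af1 was. Of 12 macrophage markers 0 were called by edgeR, 1 had an unadjusted p under 0.05, and DESeq2 called Cd68 lower. They summed to 320 to 429 CPM in WT and 467, 200 and 214 CPM in CCR1-KO replicates 65, 66 and 67.

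Clock genes differed between the CCR1-KO libraries. Dbp, Arntl, Npas2, Cry1, Ciart, Nr1d2 and Tef set replicate 65 apart from replicates 66 and 67, though not all of the clock genes did. Dbp read 42.0, 44.8 and 39.0 CPM in the WT libraries and 12.1, 74.0 and 85.2 CPM in the CCR1-KO libraries, and Arntl, which peaks opposite to it, read 8.94, 9.06 and 7.30 CPM in the WT libraries and 16.8, 2.97 and 1.84 CPM in the CCR1-KO libraries. Replicates 66 and 67 were high for Dbp and low for Arntl, and replicate 65 was the reverse. Nr1d1 read 76.5, 94.3 and 82.0 CPM in the WT libraries and 60.9, 103 and 54.2 CPM in the CCR1-KO libraries, with replicate 66 apart. By edgeR 1 clock gene was called, Per1, with a log2 fold change of 1.96 ± 0.15 (adjusted p = 0.0022). Per1 read 14.3, 12.1 and 11.3 CPM in the WT libraries and 42.6, 55.8 and 48.3 CPM in the CCR1-KO libraries, with replicate 65 near the others. DESeq2 called Per1 and Per2 higher; Per2 read 23.0, 17.7 and 19.9 CPM in the WT libraries and 27.5, 37.6 and 78.5 CPM in the CCR1-KO libraries, without overlap (log2 fold change 1.25 ± 0.35, adjusted p = 0.08 in edgeR). Over the 12 clock genes in the table the sums were 387 to 444 CPM in WT and 409, 689 and 731 CPM in CCR1-KO. The times of death and feeding were not given in the sources used here, and their part in the differences of the members was not tested. Without replicate 65 the members' median log2 fold change was 0.46, and without replicate 67 it was 0.33.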

How the data were processed

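Liver RNA of 6 mice was measured by sequencing of polyadenylated RNA, with paired reads and dUTP-marked second strands per the labels' protocols. Each gene has a count of reads and an FPKM per library in the deposited table, per the file headers. The deposited counts are whole numbers without normalization and entered the test unchanged. The FPKM values were scaled by the authors to gene length and library size. Per the submitters' processing notes the tools included StringTie 2.1.6, HISAT2 2.2.1, cutadapt 1.9, edgeR and DESeq2; their roles are not listed. The notes name GRCh38, a human build, whereas the gene identifiers are mouse: 27839 of 27912 are in GENCODE M21 (GRCm38), where 37 of the 43 members have the position of the table, so coordinates are given as in the table. The handling of overlapping genes and of strand in counting was not given in the sources used here.

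The test was edgeR 4.0.16 (glmQLFit and glmQLFTest, R 4.3.3) with TMM factors and filterByExpr (minimum count 10, minimum total 15), adjusted over 17729 genes by Benjamini-Hochberg. The SE was derived from the fold and the F statistic. Alternatives were DESeq2 1.42.0, RLE scaling, no scaling factors, no filter, limma 3.58.1 on log2(FPKM + 0.5) (minimum FPKM 0.5 in 3 libraries), a pseudocount of 0.1, no FPKM filter, and leaving out each library. Replicate pairs differed by more than counting noise (chi-square per degree of freedom at least 68.7). The count test was checked on counts simulated from this comparison (17219 genes, 100 changed 2-fold and 100 changed 4-fold) and recovered 35% of 2-fold and 92% of 4-fold changes, with 4 false calls among 131; DESeq2 had 52 false calls among 217. The 43 members, the further lists and the naming rule were chosen with earlier results of these data known. The rule names every member past the threshold, 25 listed members whatever their p, up to 4 called genes of each further list by smallest p, and Ccr1; other members are given by their fold. The p-values judge the difference between groups against the spread between mice within groups. Whether litters or processing days differed between the mice is not given, so such differences could not be accounted for.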

Additional observations from a re-analysis of the deposited data

How the results depend on the processing

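No paired analysis was possible because the groups share no replicate number. The 5 higher members became 16 with DESeq2, 2 without scaling factors, 3 without the count filter, 3 in limma on FPKM with either pseudocount and 1 in limma without a filter; leaving out 1 library gave 0 to 13. The 0 lower members became 1 with DESeq2 and in limma on FPKM. Over all genes, 501 higher and 640 lower became 1035 and 1312 with DESeq2, 314 and 421 without the count filter, 223 and 1088 in limma on FPKM, 217 and 969 with a pseudocount of 0.1, 67 and 172 without the FPKM filter, and 219 higher and 857 lower without scaling factors; leaving out 1 library gave 36 to 1010 higher and 66 to 1409 lower. Of all calls, 43.9% were higher, against 20.4% without scaling factors and 17.0%, 18.3% (pseudocount 0.1) and 28.0% (no filter) in limma. The members' median of 0.39 became 0.077 without scaling factors and 0.079, 0.080 (pseudocount 0.1) and 0.079 (no filter) in limma, and 0.33 to 0.46 with 1 library left out.

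Members near 0 changed sign where no factors were used, in limma on FPKM, or with a pseudocount of 0.1, in that order: Canx -0.069, -0.054 and -0.055; Dnajb9 -0.27, -0.23 and -0.24; Txndc5 -0.070, -0.067 and -0.068; Fkbp2 -0.19, -0.21 and -0.21. Edem2 gave -0.076, -0.073 and -0.075, Derl1 -0.30, -0.29 and -0.29, Derl2 -0.075, -0.068 and -0.071, and Vcp -0.18, -0.17 and -0.18. Ssr1 gave -0.28, -0.25 and -0.27, Sec24d -0.043, -0.031 and -0.031, and Atf6 -0.058, -0.056 and -0.059. Limma without a filter gave the value of limma on FPKM in each. In the limma fits, Sel1l was -0.0095 and -0.010 and Ern1 -0.014 and -0.016. Derl1 was -0.011 without the count filter, and Sec61b 0.0085 with RLE scaling. With 1 library left out, Dnajb9 ran from -0.29 to 0.38, Derl1 from -0.13 to 0.12, Sec61b from -0.097 to 0.090, Ssr1 from -0.069 to 0.13 and Eif2ak3 from -0.34 to 0.071. Of the members' folds under the 7 other settings, 223 of 301 kept sign and side of the threshold, 52 changed sign, and 13 lost and 13 gained the threshold. Apart from the shift of all genes with scaling and the fewer libraries left, the cause was not tested. Depth did not limit the members: the lowest group mean, of Derl3 in WT, was 1.95 ± 0.661 CPM (SD), where 1 read is at most 0.0167 CPM.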

Other observations

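Among the 19 tested genes outside the list that hold ERSE or ERSE-II in their promoter, 1 was called higher, Rcl1, which encodes a nucleolar protein of ribosomal RNA processing. It read 76.3, 90.5 and 82.98 CPM in the WT libraries and 136, 257 and 209 CPM in the CCR1-KO libraries, without overlap (log2 fold change 1.27 ± 0.23, adjusted p = 0.023 in edgeR's quasi-likelihood test). Of these genes, Nucb1, a Golgi calcium-binding protein, read 178, 142 and 149 CPM in the WT libraries and 130.4, 122 and 166 CPM in the CCR1-KO libraries, and Krtcap2, of the oligosaccharyltransferase, read 17.1, 19.0 and 18.7 CPM in the WT libraries and 21.3, 23.1 and 22.8 CPM in the CCR1-KO libraries; neither passed. Acacb, which encodes an acetyl-CoA carboxylase, read 61.6, 57.0 and 44.5 CPM in the WT libraries and 34.6, 21.2 and 13.8 CPM in the CCR1-KO libraries (log2 fold change -1.23 ± 0.31, adjusted p = 0.058). Rcl1, Nucb1, Krtcap2 and Acacb were named after their values were seen.

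Creb3l3, a liver transcription factor held in the ER membrane, read 248, 292 and 287 CPM in the WT libraries and 366, 412 and 463 CPM in the CCR1-KO libraries, without overlap and just short of the threshold in edgeR (log2 fold change 0.58 ± 0.14, adjusted p = 0.051), while DESeq2 called it higher. In the PERK arm, Atf4 read 61.3, 68.3 and 65.2 CPM in the WT libraries and 48.8, 69.5 and 62.9 CPM in the CCR1-KO libraries, Ddit3 read 8.58, 14.4 and 13.7 CPM in the WT libraries and 9.64, 5.62 and 8.75 CPM in the CCR1-KO libraries and Trib3 read 6.17, 7.21 and 5.09 CPM in the WT libraries and 3.35, 3.14 and 3.93 CPM in the CCR1-KO libraries; Trib3 was the one of these 3 with all CCR1-KO libraries below the WT libraries (adjusted p = 0.058 in edgeR), and DESeq2 and limma on FPKM called it lower. These genes were also named after their values were seen.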
